A study of Drosophila melanogaster with 4 samples.

Results

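The basement membrane genes described here are 10 of the 17103 genes in a table of RNA levels from sorted embryonic gonads of Drosophila melanogaster. They were chosen by symbol for what their proteins are, not by a measured value, and comprise the collagen IV genes Col4a1 and vkg, the laminin genes LanA, wb, LanB1 and LanB2, the nidogen gene Ndg, the perlecan gene trol, and the associated genes SPARC and Pxn. Gonads of Phf7 mutant embryos (Phf7[DN18]; vasGFP) were compared with gonads of control embryos (vas-GFP), with 2 biological replicates per genotype. All embryos were of stage 17, were kept at 25 °C for 18 to 22 h, and carried the vas-GFP transgene, which marks germ cells. Whole GFP-positive gonads of both sexes were sorted after mechanical disruption, and some loose germ cells came with them, so each library holds germ cells, somatic gonad cells and any tissue that stayed attached. A 3′-end kit was used for the libraries, so that reads come from transcript ends, and the question was whether RNA levels in the embryonic gonad depend on Phf7, a reader of histone methylation.

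A basement membrane is a thin sheet of extracellular matrix that underlies epithelia and wraps muscles, nerves, the gut and the gonad. Laminins, which are trimers of an α, a β and a γ chain, assemble first at the cell surface and bind integrins and dystroglycan. Collagen IV, a triple helix built in the fly from the products of Col4a1 and vkg, forms a second network that gives the sheet its strength, and nidogen and perlecan join both networks. In the fly embryo much of this material is made by hemocytes, which deposit it as they migrate, and by the fat body, while muscle and other tissues make part of their own.

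The table gives only a mean over the 4 libraries, and reads per library were recovered from it as whole numbers. Each library is called a or b within its genotype, and a normalized read count is the number of reads divided by the library's size factor, a scaling value of 0.823 to 1.13. Recovered genes numbered 12533 and held 4068531 to 5783856 reads per library. Phf7 itself had 9 and 44 reads in mutant a and b, against 749 and 495 in control a and b, where a 3′ read reports on the end of the transcript only. Libraries were assigned to genotypes through the authors' comparison, so these values are no independent check of the labels. The difference for Phf7, -5.16 on the log2 scale (SE 0.75), was not called in limma either (adjusted p = 0.3504). The gonad was represented, with 12 of 12 germ cell markers detected and summed normalized counts of 10835 to 12289 in mutants and 11649.7 to 13680.4 in controls, vas and piwi being the most abundant. All 10 somatic gonad markers were detected, fax and bnb being the most abundant, and the 9 with recovered reads summed to 8906 and 12561 in mutant a and b, against 19833 and 13840.1 in control a and b.

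Libraries of the same genotype differed in reads of markers of other tissues. Summed normalized counts of 12 muscle markers, led by Mlc2 and Act57B, were 4956 and 1253 in mutant a and b, against 1059 and 3613 in control a and b. Neuron markers, led by elav and Rdl, and midgut markers, led by alphaTry and Jon65Ai, had the same order within each genotype. Every detected marker of the 3 lists (12, 10 and 9 genes) was higher in mutant a than in mutant b. All of them were also higher in control b than in control a. The sum of the hemocyte markers, led by crq and Sr-CI, differed less, with 740 and 447 in mutant a and b, against 510.1 and 727 in control a and b. Some single hemocyte markers, such as Hml and Sr-CI, differed more than this sum. Of 12 hemocyte markers 10 were higher in mutant a than in mutant b, and 5 were higher in control b than in control a. Hml, a hemocyte gene of the clotting system, had 136 and 33 reads in mutant a and b, against 44 and 136 in control a and b, whereas He had 1 read in all and NimC1 and lz had 0 to 3 reads per library. Fat body markers, led by the lipoprotein genes apolpp and Apoltp, summed to 1543 and 1429 in mutant a and b, against 1151 and 1986 in control a and b, and Fbp1, Fbp2, Lsp1alpha and Adh were listed at 0.

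All 10 basement membrane genes were detected, all passed the filter of a mean count of 10, and they covered a wide span of abundance. Together they held 0.169% of the mean total. In the authors' means, counted in 3′-end reads that were not divided by transcript length, Col4a1, trol and SPARC lay at or above percentile 97.3 of all detected genes (4423, 4355 and 3666). LanA, vkg and LanB1 had means of 1669, 1628 and 1344, and LanB2 had 690.1. wb (mean 166), Pxn (mean 77.4) and Ndg (mean 33.5) were read far less, with Ndg at percentile 39.7. As the plot of normalized reads by library shows, the spread over libraries was also very unequal, from 1.27-fold between the highest and lowest library for trol to 4.16-fold for Pxn.

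**Figure D1:**
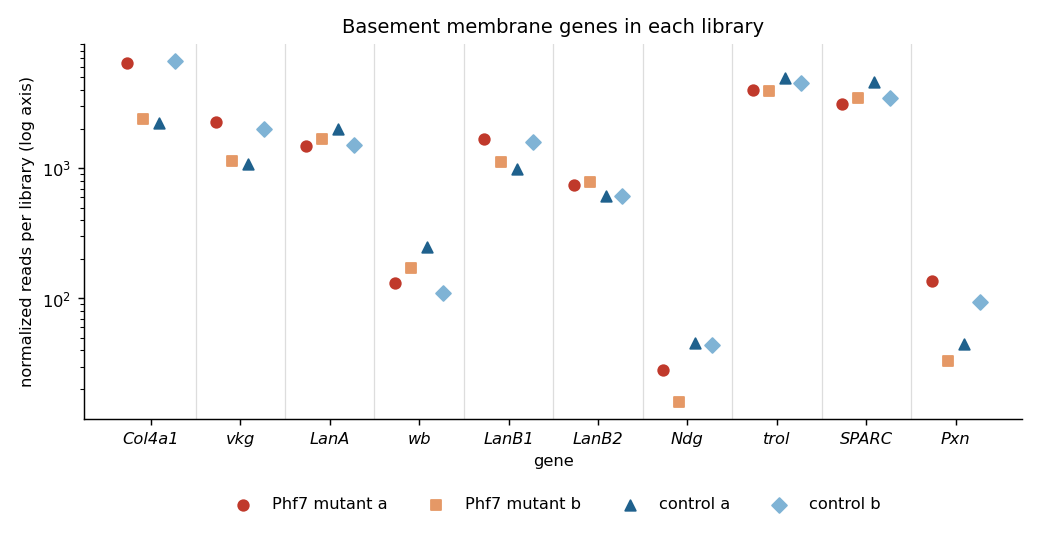
Normalized reads (log axis) of the 10 basement membrane genes in each library, with Phf7 mutant a and b left of control a and b for each gene. Col4a1, vkg, LanB1 and Pxn were high in mutant a and control b, and trol differed by 1.27-fold in all. For LanB2, Ndg, trol and SPARC the mutant points do not overlap the control points, as for 32.9% of all genes tested.

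The collagen IV genes lie head to head on chromosome 2L. In the Ensembl annotation of BDGP6, which has dm6 coordinates, Col4a1 (FBgn0000299) spans 5029609 to 5037279 on the plus strand and vkg (FBgn0016075) spans 5012144 to 5028191 on the minus strand, so that 1417 bp separate their 5′ ends. No other gene overlaps either of them. Col4a1, the α1 chain, had 6401 and 2393 normalized reads in mutant a and b, against 2217 and 6679.5 in control a and b. The values of the genotypes were thus interleaved, with mutant a and control b high and the other libraries low. vkg, the α2 chain, had 2283 and 1145 normalized reads in mutant a and b, against 1079 and 2006 in control a and b, in the same arrangement.

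The mutant minus control difference on the log2 scale was 0.02 for Col4a1 (SE 0.68, 95% interval -1.72 to 1.77) and 0.14 for vkg (SE 0.45, interval -1.01 to 1.28). Neither passed limma's test across 8978 genes (adjusted p = 0.995 and 0.987). Within a genotype the differences were far above counting error. Col4a1 was 2.67-fold higher in mutant a than in mutant b (95% exact interval 2.56 to 2.80) and 3.01-fold higher in control b than in control a (interval 2.87 to 3.17). For vkg these ratios were 1.99 (1.86 to 2.13) and 1.86 (1.72 to 2.01). Such intervals cover counting error only. The number of Col4a1 reads per vkg read also moved, to 2.80 and 2.09 in mutant a and b, against 2.05 and 3.33 in control a and b, so Col4a1 varied more than its partner.

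Within each genotype the muscle, neuron and midgut markers had the same order as the collagen IV genes. Summed muscle markers were 3.96-fold higher in mutant a than in mutant b and 3.41-fold higher in control b than in control a. For summed neuron markers these ratios were 4.02 and 2.85, and for summed midgut markers 7.85 and 19.3. The summed hemocyte markers were 1.65-fold and 1.42-fold higher in the same pairs and the summed fat body markers 1.08-fold and 1.73-fold higher. Single hemocyte markers differed from their sum. crq had 308 and 298 normalized reads in mutant a and b, against 256 and 209 in control a and b. For Sr-CI these values were 130 and 43.7, against 62.0 and 187. For Hml they were 120 and 29.4, against 44.7 and 165. The markers eater and NimC4 had the order of Sr-CI within each genotype. By contrast srp, PPO2 and gcm, like crq, were higher in control a than in control b. Of 12 hemocyte markers 10 were higher in mutant a than in mutant b, and 5 were higher in control b than in control a. These counts include He, lz, NimC1 and PPO1, which had 0 to 3 reads per library. The part of these tissues in the collagen IV levels was not tested, and more cells of a type and more RNA per cell cannot be told apart in such samples. The plot of cell type markers sets these sums beside Col4a1 and SPARC.

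**Figure D2:**
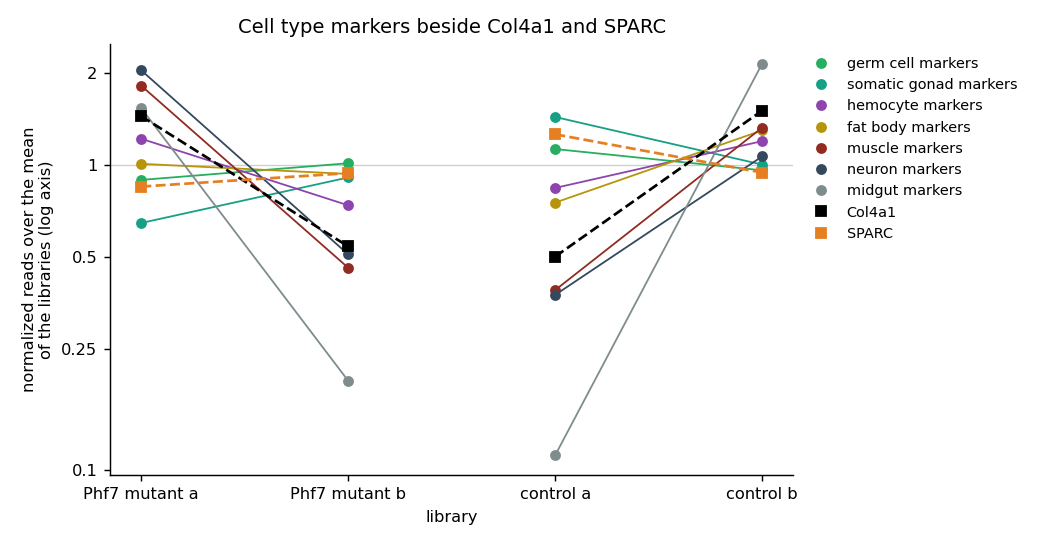
Summed normalized reads of each marker list, and normalized reads of Col4a1 and SPARC, over their own mean of the 4 libraries (log axis), for Phf7 mutant a and b and control a and b, with a line joining the libraries of a genotype. Col4a1 lies with the muscle, neuron and midgut markers and, by a smaller margin, the hemocyte markers on the high side in mutant a and control b. SPARC, like the sum of the somatic gonad markers, was highest in control a (4629) and lowest in mutant a (3119).

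The laminin chains did not vary together. LanA (FBgn0002526, 3L 6203831 to 6218022, minus strand), an α chain, had 1497 and 1669 normalized reads in mutant a and b, against 1991 and 1519 in control a and b. It was highest in control a and overlapped between genotypes. wb (FBgn0261563, 2L 14263027 to 14328262, plus strand), the other α chain, had 131 and 173 normalized reads in mutant a and b, against 249 and 111 in control a and b. Control a was again the highest library and control b the lowest, a 2.25-fold span. Of the 4 annotated genes that overlap the wb interval none overlaps an exon of wb with an exon of its own.

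LanB1 (FBgn0261800, 2L 7811438 to 7820771, plus strand), the only β chain of the fly, had 1673 and 1113 normalized reads in mutant a and b, against 986 and 1604 in control a and b. Within each genotype this is the order of the collagen IV genes, with a smaller span of 1.70-fold over the libraries. LanB2 (FBgn0267348, 3L 9614914 to 9623980, plus strand), the only γ chain, had 746 and 788 normalized reads in mutant a and b, against 609.7 and 617 in control a and b. Both mutant libraries were above both controls, as for 16.1% of all genes tested. The ratios within a genotype did not depart from 1 beyond counting error (0.947, interval 0.860 to 1.04, in mutants and 1.01, interval 0.898 to 1.14, in controls).

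LanB2 was the laminin gene with the largest difference between genotypes, 0.32 on the log2 scale (SE 0.18, 95% interval -0.14 to 0.78), and it did not pass limma's test (adjusted p = 0.977). For LanB1, LanA and wb the differences were 0.12 (SE 0.33), -0.14 (SE 0.21) and -0.14 (SE 0.47), with adjusted p from 0.977 to 0.987 in the same limma fit. Relative to LanA, LanB1 had 1.12 and 0.667 reads per read in mutant a and b, against 0.495 and 1.06 in control a and b. The balance of β and α chain reads therefore moved 2.26-fold between libraries. In each genotype it was higher in the library with more muscle, neuron, midgut and summed hemocyte marker reads. Their part in it was not tested.

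Nidogen and perlecan reads were lower in both mutant libraries than in both controls, as were those of 16.8% of all genes tested. Ndg (FBgn0026403, 2R 10313891 to 10322104, plus strand), which links laminin and collagen IV, had 32 and 18 reads in mutant a and b, against 45 and 36 in control a and b, or 28.3 and 16.04 normalized reads against 45.7 and 43.7. At this depth counting error is large, and the ratio of mutant a to mutant b was 1.77 with an interval of 0.962 to 3.34. The difference of -1.03 on the log2 scale (SE 0.60, interval -2.56 to 0.50) was the largest of the 10 genes and did not pass limma's test (adjusted p = 0.977). An exon of CG34222 overlaps Ndg on the opposite strand, outside the last 1000 bp of Ndg, where 0 other genes are annotated.

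trol (FBgn0284408, X 2470460 to 2545427, minus strand), which encodes the heparan sulfate proteoglycan perlecan, had 3981 and 3923 normalized reads in mutant a and b, against 4990.3 and 4525.5 in control a and b. Its span over the 4 libraries was the narrowest of the 10 genes, with ratios of 1.01 (interval 0.973 to 1.06) for mutant a over b and 0.907 (0.869 to 0.947) for control b over a. The mutant minus control difference was -0.27 on the log2 scale (SE 0.17, interval -0.69 to 0.16), with an adjusted p of 0.977 in limma. trol has 25 annotated transcripts, and mir-4955 lies in one of its exons.

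The matrix-associated genes went opposite ways between libraries. SPARC (FBgn0026562, 3R 26869238 to 26871995, minus strand), a glycoprotein that binds collagen IV, had 3119 and 3452 normalized reads in mutant a and b, against 4629 and 3466 in control a and b. Control a stood above the rest, while mutant b and control b were nearly equal, so that the genotypes were barely apart. The difference of -0.29 on the log2 scale (SE 0.21, interval -0.83 to 0.25) did not pass limma's test (adjusted p = 0.977). SPARC reads did not follow those of Col4a1, with 0.487 and 1.44 SPARC reads per Col4a1 read in mutant a and b, against 2.09 and 0.519 in control a and b.

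Pxn (FBgn0011828, 3L 2601455 to 2630064, minus strand) encodes peroxidasin, a secreted peroxidase that crosslinks collagen IV and is expressed in hemocytes. It had 155 and 37 reads in mutant a and b, against 44 and 78 in control a and b, or 137 and 33.0 normalized reads against 44.7 and 94.8. The ratios of 4.16 (interval 2.89 to 6.13) for mutant a over b and 2.12 (1.45 to 3.14) for control b over a repeat the direction of Col4a1 within each genotype. The genotypes overlapped, with a difference of 0.05 on the log2 scale (SE 0.81, adjusted p = 0.994 in limma). Pxn reads per Col4a1 read stayed between 0.0138 and 0.0214, a span of 1.56-fold, against 4.28-fold for SPARC per Col4a1. CG16986 overlaps the last 1000 bp of Pxn on the opposite strand and no strand setting of the counting was found, so some of these reads may belong to it.

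**Figure D3:**
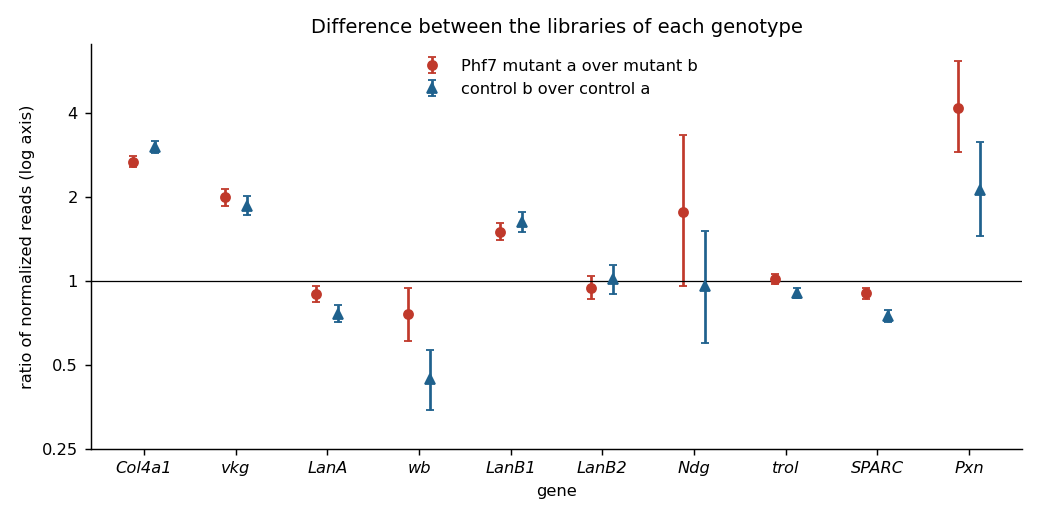
Ratio of normalized reads (log axis) of Phf7 mutant a over mutant b and of control b over control a for each gene, with 95% exact intervals for counting error. For Col4a1, vkg, LanB1 and Pxn both ratios and their intervals lie above 1, for LanA, wb and SPARC both lie below 1, and for LanB2 and Ndg the intervals include 1.

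Over the 10 genes no difference between genotypes was called. limma on log2(normalized reads + 1) gave adjusted p values of 0.977 to 0.995, with 0 of 10 genes under 0.05 and 0 of 10 at an unadjusted p under 0.05. Over all 8978 genes tested limma called 0 (0%), and 515 (5.74%) were under 0.05 without adjustment. With limma-voom 462 genes were under 0.05 without adjustment and 0 after it. Mutant and control libraries did not overlap for 4 of the 10 genes, LanB2 above and Ndg, trol and SPARC below, against 32.9% of all genes tested (16.1% with mutants above and 16.8% with mutants below). The share of the 10 genes thus lay near that of all genes. Their median difference was -0.06 on the log2 scale, beside 0.03 for all genes tested. Above 0 were 5 of the 10 genes and 4736 of all 8978. With 2 libraries per genotype an exact permutation test of a single gene could not give a p below 0.333. Nothing in the sources says more of the replicates than that they were biological, and p-values measure the spread between these libraries.

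Leaving out libraries changed the direction of some genes. In mutant b against control a alone, 9 of 10 genes kept the direction of the fit, Pxn being the exception with 33.0 against 44.7 normalized reads. In mutant a against control b alone, 8 of 10 did, the exceptions being Col4a1 with 6401 against 6679.5 and wb with 131 against 111. When mutant a or control a was left out of the limma fit, the sign turned negative for Col4a1 (-0.69 and -0.77), vkg, LanB1 and Pxn and positive for wb (0.058 and 0.44). Without control a LanA turned too (0.058). In both pairs of libraries LanB2 was higher in mutants, by 0.37 and 0.27 on the log2 scale. The other genes without overlap were lower in mutants in both pairs, with differences of -0.35 and -0.19 for trol, -0.42 and -0.15 for SPARC and -1.46 and -0.61 for Ndg. The summed somatic gonad markers, without fax, were also lower in both mutant libraries than in both controls. So were tj, bnb, Fas3, esg and upd1 singly, while zfh1, eya and Wnt2 overlapped between genotypes. Sox100B, with 1 to 7 reads per library, was higher in mutants. The part of these markers in the levels of trol, SPARC and Ndg was not tested. These pairs were chosen after the data were seen and have 1 library per genotype, so they carry no test. Each fitted difference is the mean of the differences of both pairs, so the counts of genes keeping its direction are bound to it. For the genes without overlap the sign is the same in any pair of a mutant and a control library, so that agreement was fixed in advance.

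**Figure D4:**
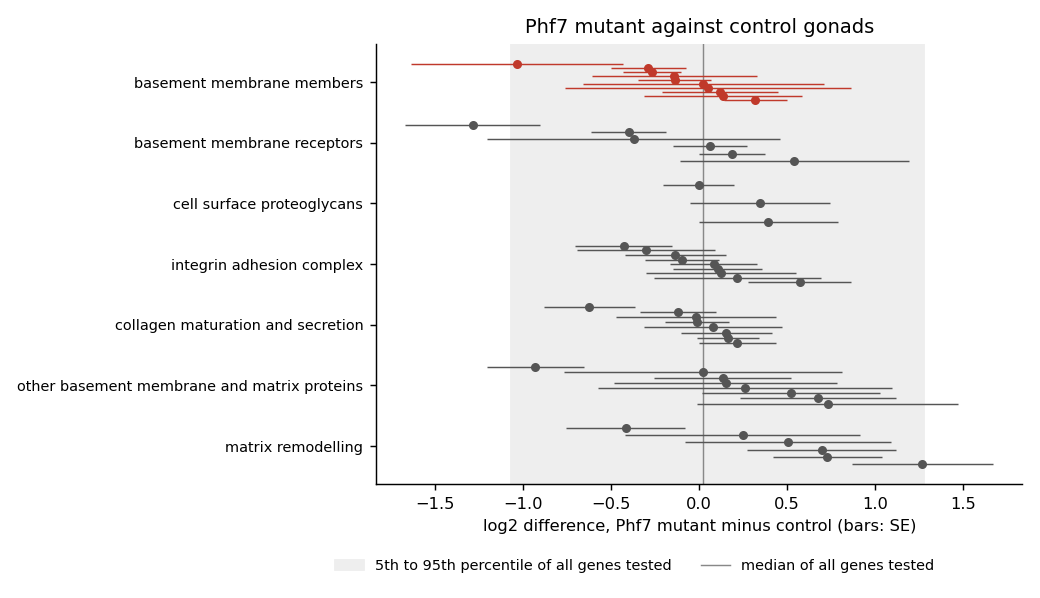
Mutant minus control difference on the log2 scale with its SE for each tested gene of the 10 basement membrane genes (red) and of 6 lists of related genes (grey), over the median (0.03) and the 5th to 95th percentile (-1.07 to 1.28) of all genes tested. All 10 red points lie inside that range, from -1.03 for Ndg to 0.32 for LanB2.

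Between libraries of a genotype the 10 genes fell into sets. Col4a1, vkg, LanB1 and Pxn were higher in mutant a than in mutant b and in control b than in control a, an order shared by 36.7% of all genes tested. LanA, wb and SPARC had the reverse order in both genotypes, as did 37.4% of all genes tested. Ndg and trol were higher in mutant a and control a (13% of all genes tested), and LanB2 in mutant b and control b (12.8%). The placing of these genes is uncertain. For Ndg and LanB2 neither ratio departed from 1 beyond counting error, nor did the mutant ratio of trol. The ratios of Col4a1 were large for its abundance. Among the 1325 tested genes whose mean reached 1000, the 95th percentile was 1.98 for mutant a over b and 1.91 for control b over a, and Col4a1 exceeded both with 2.67 and 3.01. vkg exceeded the mutant value with 1.99 and had 1.86 in controls. The sets describe the libraries and not the genotypes.

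Receptors for basement membrane were read in the same gonads and none was called. Of 8 receptor genes 6 passed the filter, with 0 called in limma and a median difference of -0.15 on the log2 scale. mew, an integrin α chain that binds laminin, differed by 0.06 (SE 0.21). Its normalized reads were 2588 and 2293 in mutant a and b, against 2032 and 2676 in control a and b. Dg, or dystroglycan, another laminin receptor, differed by 0.19 (SE 0.19). Its normalized reads were 649 and 595 in mutant a and b, against 550 and 543 in control a and b. scb, an integrin α chain singled out after its values were seen, had the largest difference of the list, with 163 and 300.2 normalized reads in mutant a and b, against 653 and 446 in control a and b. Its difference of -1.28 on the log2 scale (SE 0.38) had an unadjusted p of 0.0197 and an adjusted p of 0.706 in limma.

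The cell surface proteoglycans Sdc, dlp and dally and 9 genes of the integrin adhesion complex also had 0 calls. Sdc, or syndecan, was the most abundant and differed by -0.00036 on the log2 scale (SE 0.20). It had 8252 and 6744 normalized reads in mutant a and b, against 6876 and 8097 in control a and b. dally, a glypican, differed by 0.39 (SE 0.40), with 3715 and 2008 normalized reads in mutant a and b, against 1607 and 2691 in control a and b. In the adhesion complex Ilk and rhea, which encode integrin-linked kinase and talin, differed by 0.08 (SE 0.25) and 0.11 (SE 0.25), and the median over its 9 genes was 0.08.

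Genes that modify and export collagen were not called either. Of 9 genes on this list 8 were detected and tested, 0 were called, and their differences ran from -0.62 to 0.22 on the log2 scale. Pdi, a protein disulfide isomerase, differed by -0.12 (SE 0.21). Its normalized reads were 2373 and 3043 in mutant a and b, against 3217 and 2641 in control a and b. ergic53, a cargo receptor of the early secretory pathway, differed by -0.01 (SE 0.18). It had 921 and 903 normalized reads in mutant a and b, against 986 and 859 in control a and b.

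Other matrix proteins and remodelling enzymes completed the lists, again with 0 calls. Glt, a glycoprotein of basement membranes, had 1741 and 715 normalized reads in mutant a and b, against 603 and 1673 in control a and b, the arrangement of Col4a1. NetB, a netrin, differed by 0.68 (SE 0.44), with 1006 and 422 normalized reads in mutant a and b, against 364 and 457 in control a and b. Of the 8 genes of this list 7 were above 0, with a median of 0.21. Tsp, thrombospondin, singled out after its values were seen, was the exception, with 119 and 139 normalized reads in mutant a and b, against 265 and 227 in control a and b (difference -0.93, SE 0.28, unadjusted p = 0.0190 and adjusted p = 0.698 in limma). Of 6 remodelling genes 5 were above 0, with a median of 0.60. Over all 8978 genes tested 4736 were above 0, with a median of 0.03, and the counts of these lists were not tested against it. AdamTS-B, a metalloprotease of the ADAMTS family, had 461 and 239 normalized reads in mutant a and b, against 119 and 158 in control a and b. Its difference of 1.27 (SE 0.40) had an unadjusted p of 0.0241 and an adjusted p of 0.742 in limma. Timp, an inhibitor of matrix metalloproteases, differed by -0.42 (SE 0.34). Its normalized reads were 122 and 192 in mutant a and b, against 186 and 225 in control a and b.

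Likeness between genes was measured as the root mean square distance between their log2 profiles over the 4 libraries, each set to a mean of 0. Among 6982 genes whose mean reached 50, Pxn ranked 81 and vkg 90 in likeness to Col4a1 (distances 0.28 and 0.29), while LanA ranked 4326, SPARC 4536 and wb 6488. SPARC ranked 179 for LanA, at a distance of 0.08, and LanA ranked 105 for SPARC. The gene nearest to Col4a1 but one was Glt, at a distance of 0.09, after CG3814. The 5 genes nearest to the mean profile of the 10 genes were CG9485, Sas-6, CG18262, Spn and Ptp4E, at distances of 0.01 to 0.03. That mean averages opposite profiles, such as those of Col4a1 and wb (distance 1.17), so nearness to it is not likeness to any single basement membrane gene. A profile over 4 libraries has few points, and many genes share the order of the libraries, so these ranks are descriptions.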

How the data were processed

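RNA of sorted gonads was sequenced from 3′ ends (QuantSeq). The submitters' notes name HISAT2, HTSeq, Cufflinks, DESeq2 and the build dm6. Neither versions nor a strand setting were found. The deposited table holds, per gene, a mean normalized count over the 4 libraries, treated as a signal, and the authors' own comparison (log2 fold change, standard error, Wald statistic, p and adjusted p). No value of that comparison is reported.

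Each mean is a sum of whole reads times a weight per library, so reads were recovered by solving for whole numbers. Up to a mean of 1000, 1 set existed for 11208 of 11208 genes. From 1000 to 10000, the set giving the deposited log2 fold change and standard error was taken where it was 100 times closer than the next (1325 of 1328 genes). This covers Col4a1, vkg, LanA, LanB1, trol and SPARC, whose values per library thus rest partly on that comparison. In a check on 500 genes with known reads and means up to 1000, the tolerance was widened, which left 431 with 2 or more sets. Of these 429 were accepted and 429 were right. The median was 8 sets per gene, whereas Col4a1, trol and SPARC had 67, 66 and 37 sets to choose from. The 143 genes above 10000 were not recovered, and recovered genes hold 46.1% of the mean total. The sign of the deposited log2 value for genes read once in all assigned libraries to genotypes, so the level of Phf7 is no independent check of them. The letters a and b are not replicate numbers.

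Genes with a mean of at least 10 (8978) were compared on log2(normalized reads + 1) in limma 3.58.1 (R 4.3.3) with trend and Benjamini-Hochberg adjustment at 0.05. A fold change on this scale understates the change of low genes. limma replaced the count test of the study because no count table was used, and its code was tested on simulated data drawn for genes with a mean of at least 50. Ratios have 95% exact intervals for counting error only. Recovery used Python 3.11.15 and numpy 2.4.6. Gene positions come from Ensembl's BDGP6 annotation, and 3 list symbols were found by synonym (AdamTS-B is listed as CG4096). No sequences were used.

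Named genes were the 10 basement membrane genes, the most abundant 2 genes of each list where none was called, the 5 genes nearest the mean profile, and Phf7. Others are marked where they appear, except Hml, which was named outside this rule. The other hemocyte and somatic gonad markers, and fat body markers at or near 0, were also named after their values were seen, as were the neighbours of Col4a1. Genes and lists were chosen with earlier results of these data known.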

Additional observations from a re-analysis of the deposited data

How the results depend on the processing

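The count of basement membrane genes called stayed at 0 under 11 alternatives, and so did the count over the related lists: pseudocounts of 0.5 and 5, no filter or a mean of at least 50 (which drops Ndg), scaling by recovered reads, limma without trend, limma-voom, and leaving out each library. In 69 fits of single genes outside the leave-one-out settings 0 changed direction, and the lowest adjusted p of a basement membrane gene over the alternative limma fits was 0.821. Leaving out 1 library turned 11 of 40. The ranges were -0.77 to 0.82 for Col4a1, -0.36 to 0.63 for vkg, -0.33 to 0.058 for LanA, -0.72 to 0.44 for wb, -0.23 to 0.47 for LanB1, 0.28 to 0.36 for LanB2, -1.42 to -0.64 for Ndg, -0.34 to -0.20 for trol, -0.50 to -0.08 for SPARC and -0.96 to 1.06 for Pxn, and the median of the 10 ran from -0.25 to 0.03. The lone library of a genotype was then assumed to vary like the other genotype. With 1 library per genotype, a choice made after seeing the data, Col4a1 (-0.061) and wb (0.24) turned in mutant a minus control b and Pxn (-0.43) in mutant b minus control a. The cause was not tested. No paired analysis was possible because the recovered libraries carry no replicate number, so the replicate block was not run. Depth limits Ndg, with 18 to 45 reads per library. The limma fit called 0 of 8978 genes, and Phf7 itself, at -5.16 on the log2 scale, had an adjusted p of 0.3504, so the absence of calls sets no limit on the differences of any of the 10 genes beyond their intervals.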
